A study of Mus musculus with 6 samples.

Results

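The Ms4a genes encode small membrane proteins that cross the plasma membrane several times, and most of them sit side by side in a cluster on mouse chromosome 19. The best known members are CD20 (Ms4a1) of B cells and the β subunit of the high-affinity IgE receptor (Ms4a2) of mast cells. Others are made by macrophages, monocytes or T cells, where they associate with receptors and modulate their signalling. Here 9 of them (Ms4a4a, Ms4a4b, Ms4a4c, Ms4a4d, Ms4a6b, Ms4a6c, Ms4a6d, Ms4a7 and Ms4a8a) were followed among 25206 rows, 1 row per gene, of a kidney expression array. The genes were selected on their values in the same comparison of genotypes that is described here. Their differences, intervals and calls in the fit over all rows are therefore given as a description and not as a test of these genes.

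RNA of whole kidney was hybridised to Affymetrix Mouse Gene 2.0 ST arrays, with 3 arrays for each genotype, wild-type and Vhl knockout. All mice were untreated C57BL/6 males aged 3 months that carried a floxed Vhl allele, and the knockout mice also carried Hoxb7-Cre-GFP. Vhl encodes the part of a ubiquitin ligase that marks hypoxia-inducible factors for degradation, and the knockout served as a model of clear cell renal carcinoma. The Hoxb7 promoter drives Cre in part of the tubule cells only, so the extracts also held cells that kept Vhl. The array labels name no Cre for the wild-type mice, although the paper gives Hoxb7-Cre-GFP for the wild-type mice of its primary cell cultures, and if the array controls lacked it, the transgene and the loss of Vhl cannot be told apart. No source says that each array came from a separate mouse, and p-values therefore measure the spread between these arrays, which may be technical. The Vhl row itself gave log2 signals of 6.11, 6.13 and 6.03 in wild-type kidney, against 6.08, 6.18 and 6.10 in knockout kidney (log2 difference 0.03, SE 0.0722). The sources used here do not give where its probes lie relative to the deleted part, and this row does not check the labels.

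The promoters of several members resembled each other, which is shown first because it bears on how far the genes are copies of one another. RefSeq promoters (assembly GRCm38.p6, 250 bases before to 50 after the start) were found for 8 of the 9 genes, with a pair of promoters for Ms4a7. Ms4a6d is in none of the promoter counts. Of 170 pairs of Ms4a promoters compared, Ms4a6c and Ms4a6b shared the longest identical run, of 48 bases, and Ms4a4c and Ms4a4b the next, of 20 bases. Each of these runs occurred in 2 of the 32851 promoters of the table. The stretches below are on the + strand, and capitals mark the shared run. Ms4a6c lies at chr19:11469258-11469367 and Ms4a6b at chr19:11518399-11518508, Ms4a4c at chr19:11407551-11407660 and Ms4a4b at chr19:11443447-11443556.
Ms4a6c: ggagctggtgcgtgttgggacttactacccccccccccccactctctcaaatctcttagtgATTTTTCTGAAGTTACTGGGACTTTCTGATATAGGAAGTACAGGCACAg
Ms4a6b: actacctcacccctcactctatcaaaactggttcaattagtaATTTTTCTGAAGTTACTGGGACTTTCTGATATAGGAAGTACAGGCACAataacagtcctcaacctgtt
Ms4a4c: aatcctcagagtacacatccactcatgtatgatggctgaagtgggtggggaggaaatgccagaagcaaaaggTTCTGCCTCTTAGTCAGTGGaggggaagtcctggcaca
Ms4a4b: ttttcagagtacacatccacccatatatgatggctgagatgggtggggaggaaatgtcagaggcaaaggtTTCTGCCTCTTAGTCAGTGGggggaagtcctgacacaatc

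The run shared by Ms4a6c and Ms4a6b begins 49 bases before the start in Ms4a6c and 118 bases before it in Ms4a6b. It holds AGGAAGT, a form of the site read by ETS factors such as PU.1, the factor that specifies myeloid cells. This motif was looked for after the run had been seen. On both strands it occurred in 9.35% of all promoters and in 2 of the 9 member promoters, those of Ms4a6c and Ms4a6b. The AP-1 site TGANTCA was in 7.81% of all promoters and in those of Ms4a4b, Ms4a7 and Ms4a8a. The core of the hypoxia-response element was in no member promoter as ACGTG (19.6% of all promoters) and in that of Ms4a6c as GCGTG (32.4%).

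The interferon-response form GAAA, any 2 bases, GAAA was in 0 of the 9 member promoters and 3.44% of all, and the ETS-IRF form GGAA, any 2 bases, GAAA in 0 of 9 and 2.72%. These counts depended on the last letter. Without the final A, a form searched after the first counts were known, GAAANNGAA was in 4 of the 9 member promoters (of Ms4a6b, Ms4a6c and both of Ms4a7) and 8.56% of all promoters, and GGAANNGAA in 1 (Ms4a6c) and 8.24%. A match is a description of the letters and not a site.

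The signal of 8 of the 9 genes had a higher mean in Vhl knockout than in wild-type kidney, as did 10760 of 25206 rows. In the fit over all rows 4 were called higher at an adjusted p under 0.05 (Ms4a6d, Ms4a6b, Ms4a7 and Ms4a6c) and 0 lower, where 2.24% of all rows were called higher and 0.524% lower. For 5 genes every knockout array lay above every wild-type array, as it did for 11.2% of all rows. Nothing is read from these shares, since the genes were chosen by this comparison. The median log2 difference was 0.81 over the 9 genes and -0.03 over all rows. In bulk tissue, more cells of a type and more RNA per cell cannot be told apart.

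**Figure D1:**
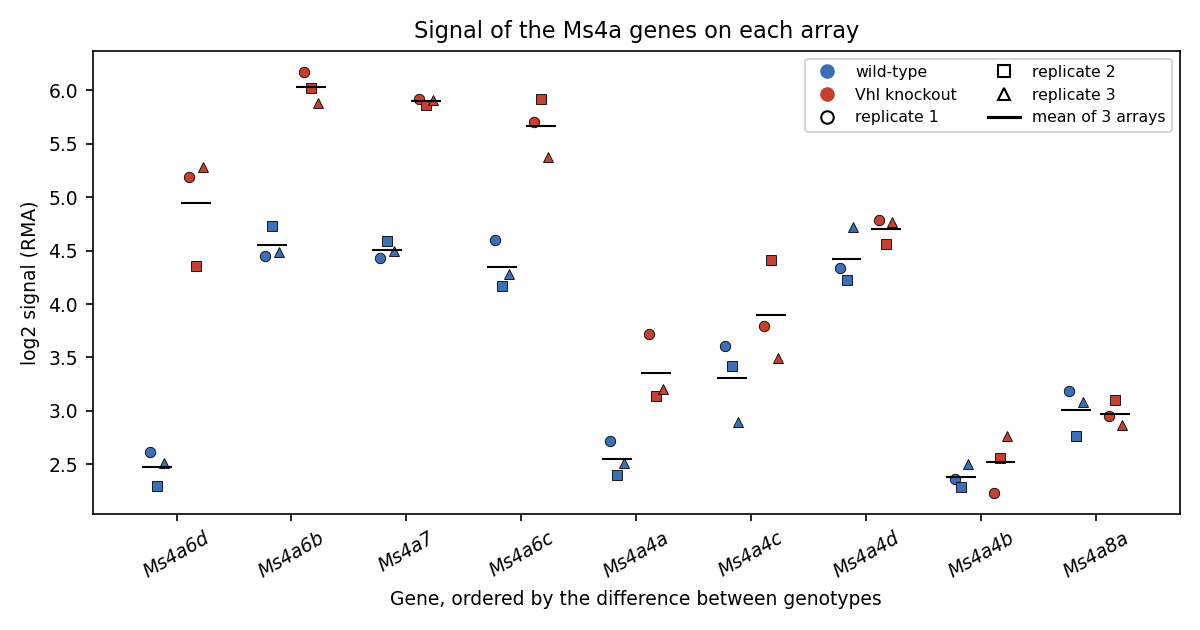
Log2 RMA signal (vertical axis) of the 9 Ms4a genes on the 3 wild-type (blue) and 3 Vhl knockout (red) arrays, with a bar at each mean and a marker shape for each replicate number. Ms4a6d moved from 2.30 to 2.61 in wild-type kidney to 4.36 to 5.28 in knockout kidney, and the groups overlap for Ms4a4c, Ms4a4d, Ms4a4b and Ms4a8a.

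Ms4a6d is made by mouse macrophages, where it has been described in a surface complex with the complement receptor Vsig4. Its log2 signals were 2.61, 2.30 and 2.51 in wild-type kidney and 5.19, 4.36 and 5.28 in Vhl knockout kidney. The groups were apart by 1.74, and knockout replicate 2 was the lowest of the knockout arrays. The mean went from 2.48 ± 0.16 to 4.94 ± 0.51 (SD, n = 3 each), a log2 difference of 2.47 (SE 0.238, 95% interval 1.91 to 3.02) or 5.52-fold. This was rank 7 of all 25206 rows by increase. On each array, Ms4a6d lay between percentiles 9.16 and 12.0 of all rows in wild-type kidney and between 38.9 and 53.3 in knockout kidney. RMA values carry no measure of background, so it is not known whether the wild-type signal stood above it.

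Ms4a6b, first described in T cells, gave 4.45, 4.73 and 4.49 in wild-type and 6.17, 6.02 and 5.88 in knockout kidney. The 3 knockout arrays lay close together and 1.15 above the highest wild-type array. The log2 difference was 1.47 (SE 0.111, 95% interval 1.21 to 1.73), which is 2.77-fold. This interval did not overlap with that of Ms4a6d. Both genes were selected on these values, so this is a description and not a test between them.

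Ms4a7, a gene of tissue macrophages, had the tightest values of the 9 genes. It gave 4.43, 4.59 and 4.49 in wild-type and 5.92, 5.86 and 5.91 in knockout kidney. The group SD was 0.080 and 0.031, against a log2 difference of 1.39 (SE 0.0746, 95% interval 1.22 to 1.57), or 2.62-fold.

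Ms4a6c, a gene of monocytes and macrophages, gave 4.60, 4.17 and 4.28 in wild-type and 5.70, 5.92 and 5.37 in knockout kidney. Here knockout replicate 2 was the highest of the 3, unlike for Ms4a6d. The log2 difference was 1.31 (SE 0.166, 95% interval 0.92 to 1.70), or 2.48-fold. The annotation places a long noncoding RNA, BE692007, over Ms4a6c. Its own row had a log2 difference of -0.26 (SE 0.103) and was not called (limma, adjusted p = 0.261).

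The Ms4a4 genes had smaller differences. Human MS4A4A is found on alternatively activated macrophages, where it associates with the fungal receptor dectin-1. Mouse Ms4a4a gave 2.72, 2.40 and 2.52 in wild-type and 3.72, 3.14 and 3.20 in knockout kidney. The groups did not overlap, with knockout replicate 1 the highest, but the log2 difference of 0.81 (SE 0.167, 95% interval 0.42 to 1.20) was not called in the fit over all rows. It was called in 3 alternative fits, while with the adipocyte signal in the fit it was 0.51.

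Ms4a4c is induced by interferon in mouse leukocytes. It gave 3.61, 3.42 and 2.90 in wild-type and 3.79, 4.41 and 3.49 in knockout kidney, and the groups overlapped because knockout replicate 3 lay below wild-type replicate 1. The log2 difference was 0.59 (SE 0.262, 95% interval -0.03 to 1.20).

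Ms4a4d gave 4.33, 4.23 and 4.72 in wild-type and 4.78, 4.56 and 4.76 in knockout kidney. The groups overlapped, and the 95% interval of the log2 difference of 0.28 reached from -0.05 to 0.60. Ms4a4b, a T cell gene whose product associates with the receptor GITR, gave 2.37, 2.29 and 2.50 in wild-type and 2.23, 2.56 and 2.76 in knockout kidney. Its knockout values lay on both sides of the wild-type range, with a log2 difference of 0.14 (95% interval -0.19 to 0.46).

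Ms4a8a has been described in alternatively activated macrophages. It gave 3.19, 2.76 and 3.09 in wild-type and 2.95, 3.10 and 2.87 in knockout kidney. All 3 knockout values fell within the wild-type range. The log2 difference was -0.04 (95% interval -0.33 to 0.25), and its sign turned positive in 5 of 12 alternative fits.

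All 9 genes lay below the median of every wild-type array, and 4 of them below the lower quartile of every wild-type array. In knockout kidney 3 lay above the median on every array. Ms4a4b (percentiles 9.05 to 14.5) and Ms4a8a (14.0 to 19.1) stayed below the lower quartile on all arrays of both genotypes. A difference may not show in signals this low. The probe sequences are not in the sources used here, so signal shared between similar copies, such as Ms4a6b and Ms4a6c or Ms4a4b and Ms4a4c, cannot be told apart from each gene's own. Within an array, the log2 ratio of Ms4a6d to each of the other 8 genes was higher on every knockout than on every wild-type array, with a change of 0.99 against Ms4a6b and 2.51 against Ms4a8a. The ratios among Ms4a6b, Ms4a7 and Ms4a6c overlapped between genotypes, with changes of 0.08 to 0.16. These ratios rest on the values that chose the genes and are a description.

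**Figure D2:**
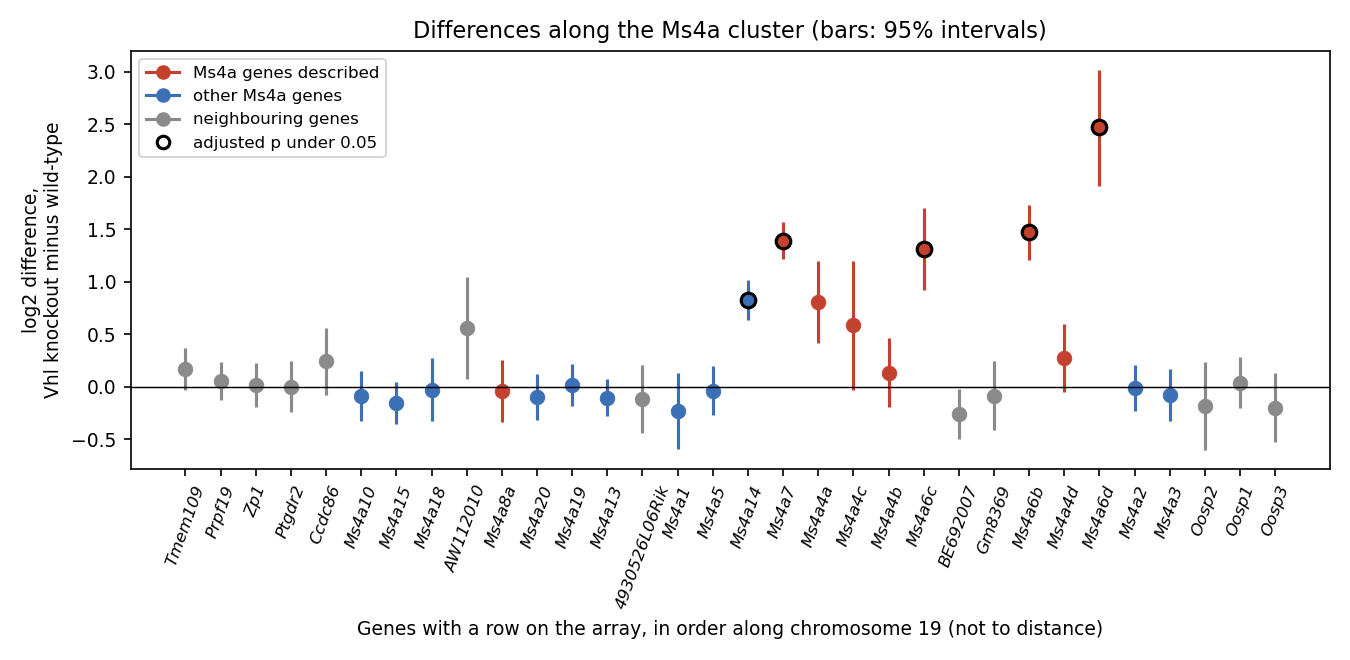
Log2 difference between Vhl knockout and wild-type kidney (vertical axis, bars are 95% intervals) for the genes of the Ms4a cluster with a row on the array, in order along chromosome 19 and not to distance. Differences of the Ms4a genes from Ms4a14 to Ms4a6d ranged from 0.14 to 2.47, and those outside it from -0.23 to 0.02.

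Along chromosome 19, the genes called higher lay in 1 stretch, with uncalled genes between them. From Ms4a14 to Ms4a6d the array had 9 Ms4a genes, of which 5 were called higher, with log2 differences from 0.14 to 2.47. The uncalled Ms4a4a, Ms4a4c and Ms4a4b lie between Ms4a7 and Ms4a6c, and Ms4a4d lies between Ms4a6b and Ms4a6d. The 11 Ms4a genes on either side included none that was called, and their differences ran from -0.23 to 0.02. Of 12 other genes of the region 0 were called by limma, and their differences ran from -0.26 to 0.56. The ends of the stretch were drawn from these data, and no test was made of it.

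Of 11 Ms4a genes outside the 9, 1 was called higher, where 2.24% of all rows were. Ms4a14, which lies next to Ms4a7, gave 3.29, 3.39 and 3.27 in wild-type and 4.10, 4.08 and 4.26 in knockout kidney. The groups did not overlap, and the log2 difference was 0.83 (SE 0.0813, limma, adjusted p = 0.00436). With the adipocyte signal in the fit the difference was 0.79 (SE 0.116) and was not called (adjusted p = 0.0678). Ms4a1, which encodes CD20, gave a log2 difference of -0.23 (adjusted p = 0.496). The β subunit gene Ms4a2 gave -0.01 (adjusted p = 0.972), and Ms4a3, a gene of granulocyte and monocyte progenitors, -0.08 (adjusted p = 0.763). The signal of 7 of the 11 lay below the lower quartile of every array. The related genes Tmem176a and Tmem176b were high in both genotypes and gave log2 differences of 0.14 (adjusted p = 0.514) and 0.13 (adjusted p = 0.427).

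Of 7 genes whose products have been reported to act with Ms4a proteins, 3 were called higher (2.24% of all rows) and 0 lower (0.524% of all rows). Fcer1g, the γ chain that carries the signalling motif of Fc receptors, gave 6.05, 6.30 and 6.33 in wild-type and 7.49, 7.41 and 7.26 in knockout kidney. The groups were well apart, and the log2 difference was 1.17 (SE 0.105, limma, adjusted p = 0.00364). Clec7a, which encodes dectin-1, gave a difference of 0.93 (SE 0.129, adjusted p = 0.0143), and Tyrobp, the adaptor of Trem2, one of 0.69 (SE 0.108, adjusted p = 0.0218). The call of Clec7a was lost without wild-type replicate 1 or 3 or knockout replicate 3 (adjusted p up to 0.0605), and that of Tyrobp without any 1 array other than knockout replicate 1 (adjusted p up to 0.0841). With the adipocyte signal in the fit all 3 calls were lost, and the SEs were larger. The difference was then 1.17 for Fcer1g (SE 0.154, adjusted p = 0.0515), 0.72 for Clec7a (SE 0.143, adjusted p = 0.131) and 0.80 for Tyrobp (SE 0.146, adjusted p = 0.110). The part of fat in these 3 signals was not tested. Trem2, a lipid receptor of macrophages, gave 0.36 (adjusted p = 0.211). Vsig4, the reported partner of Ms4a6d, gave 0.09 (adjusted p = 0.683), the GITR gene Tnfrsf18 0.06 (adjusted p = 0.899) and Fcer1a, the IgE-binding chain, 0.00 (adjusted p = 0.994). Over all arrays Vsig4 lay between percentiles 3.61 and 6.6 of the rows and Fcer1a between 4.74 and 8.21. A difference may not show in signals this low.

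**Figure D3:**
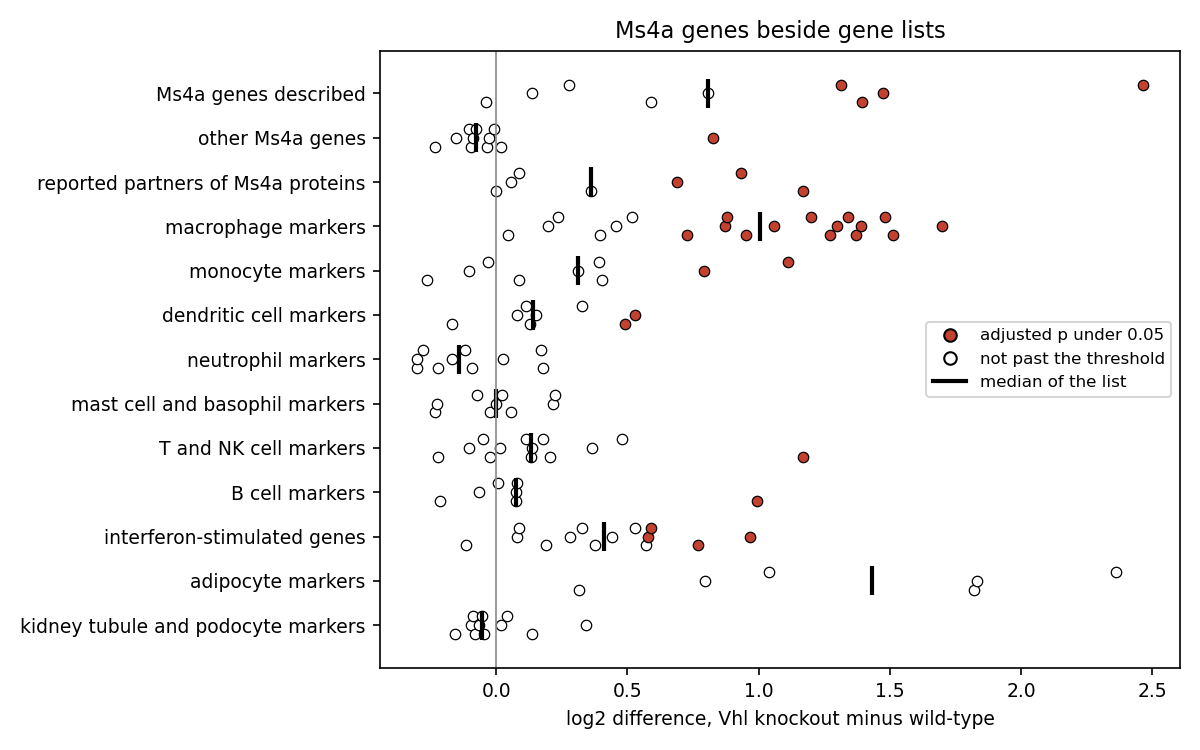
Log2 difference between Vhl knockout and wild-type kidney (horizontal axis) for each gene of the lists named at the left, filled where the adjusted p was under 0.05, with a bar at each list's median. The median was 0.81 for the 9 Ms4a genes, 1.01 for macrophage markers, -0.14 for neutrophil markers and 1.43 for adipocyte markers, of which none was called.

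Of 20 macrophage markers measured, 14 were called higher (2.24% of all rows) and 0 lower (0.524% of all rows), with a median log2 difference of 1.01. Their mean signal ranged from 5.38 to 5.59 on the wild-type arrays and from 6.35 to 6.53 on the knockout arrays, so the groups did not overlap, and none lay below the lower quartile of every array. Mrc1, the mannose receptor, gave the largest difference, 1.70 (SE 0.143, adjusted p = 0.00286). The protease gene Ctss gave 1.51 (SE 0.124, adjusted p = 0.00262), and the complement gene C1qb 1.48 (SE 0.110, adjusted p = 0.0021). The 6 that were not called were Csf1r (0.20), Mertk (0.04), Timd4 (0.23), Cx3cr1 (0.39), Lyve1 (0.46) and Folr2 (0.52). With the adipocyte signal in the fit 6 of the 20 were called, and without knockout replicates 1 and 3 none were. The differences of the 14 genes, 0.73 to 1.70 in the fit of all arrays, were then 0.40 to 1.59 and 0.41 to 1.61. C1qb was at 1.38 and 1.43 in these fits and Ctss at 1.49 in both, whereas Cd163 went from 0.73 to 0.40 and 0.41. The part of these cells in the signal of the Ms4a genes was not tested.

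Lists of the other blood cell types had fewer calls, where 2.24% of all rows were called higher. Several of these lists also had lower signals, in which a difference may not show. Below the median of every array lay 2 of the 9 monocyte, 4 of the 8 dendritic cell, 10 of the 13 T and NK cell and 5 of the 7 B cell markers. Among the 20 macrophage markers this held for 2. Of 9 monocyte markers, 2 were called higher, F13a1 (1.11, adjusted p = 0.0278) and Plac8 (0.79, adjusted p = 0.0307), and the median was 0.31. Of 8 dendritic cell markers, 2 were called higher, Itgax (0.53, adjusted p = 0.0203) and Siglech (0.49, adjusted p = 0.0439). Of 13 T and NK cell markers 1 was called higher, the interleukin-7 receptor gene Il7r (1.17, SE 0.106, adjusted p = 0.00364), while Cd3g gave 0.48 (adjusted p = 0.201). Of 7 B cell markers 1 was called higher, the immunoglobulin heavy chain gene Ighm (0.99, SE 0.079, adjusted p = 0.00253), while Cd79a gave -0.21 (adjusted p = 0.397). The medians of the last 3 lists were 0.14, 0.13 and 0.08. The calls of F13a1, Plac8, Itgax and Siglech were each lost without wild-type replicate 1, without wild-type replicate 3 and without at least 2 of the other arrays, with an adjusted p of up to 0.109, 0.105, 0.0845 and 0.135.

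No neutrophil or mast cell marker was called by limma. The 10 neutrophil markers had a median of -0.14, with Ngp at -0.30 (adjusted p = 0.428) and Mpo at -0.30 (adjusted p = 0.454), and 6 of them lay below the lower quartile of every array. At an unadjusted p under 0.05, 0 were higher and 1 was lower. The 9 mast cell and basophil markers had a median of 0.00, with Hdc at -0.24 (adjusted p = 0.588) and Kit at -0.23 (adjusted p = 0.261), and likewise 0 were higher and 1 was lower at an unadjusted p under 0.05. The signal of 6 of these 9 also lay below the lower quartile of every array. Of 14 interferon-stimulated genes 4 were called higher (2.24% of all rows), with a median of 0.41. They were led by Oas2 (0.97, SE 0.168, adjusted p = 0.0309), Oasl2 (0.77, adjusted p = 0.0155) and Xaf1 (0.59, adjusted p = 0.0213). These 3 calls were also each lost without wild-type replicate 1, without wild-type replicate 3 and without at least 2 of the other arrays, with an adjusted p of up to 0.116, 0.0663 and 0.079.

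**Figure D4:**
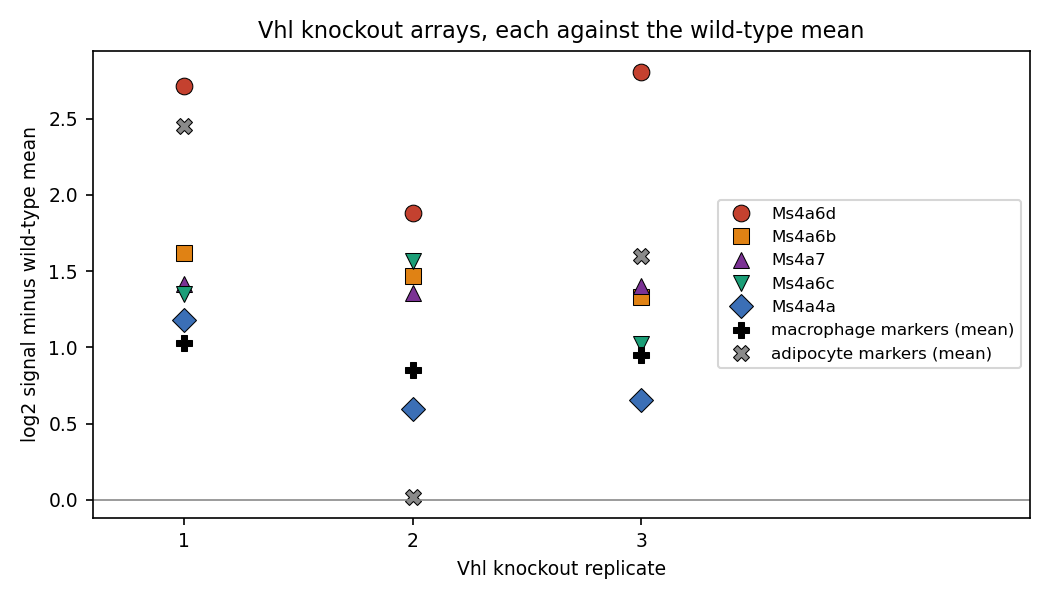
Log2 signal of each Vhl knockout array minus the wild-type mean (vertical axis) for 5 Ms4a genes and for the mean of the macrophage and adipocyte markers, by knockout replicate (horizontal axis). The adipocyte mean stood at 2.45, 0.02 and 1.60 and the macrophage mean at 1.03, 0.85 and 0.95.

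The knockout arrays differed in their signal of adipocyte markers. The mean of 6 adipocyte markers was 7.33, 4.90 and 6.48 on knockout replicates 1, 2 and 3 and 4.63 to 5.10 on the wild-type arrays. None of the 6 was called (Retn 2.36, adjusted p = 0.241, and Cidec 1.83, adjusted p = 0.352), and 3 were higher at an unadjusted p under 0.05. Ms4a6d was likewise lowest on knockout replicate 2, at 1.88 above the wild-type mean against 2.71 and 2.81, and Ms4a4a stood at 0.59 there against 1.18 and 0.65. Ms4a6b stood at 1.62, 1.47 and 1.33, Ms4a7 at 1.41, 1.36 and 1.40 and Ms4a6c at 1.35, 1.57 and 1.02. With the adipocyte mean in the fit, the log2 difference was 1.97 for Ms4a6d, 1.42 for Ms4a6b, 1.36 for Ms4a7, 1.44 for Ms4a6c and 0.51 for Ms4a4a. The call of Ms4a6c was lost, with an SE of 0.231 against 0.166 without the adipocyte mean. On knockout replicates 1 and 3 that mean lay above every wild-type array, so this fit cannot fully separate it from genotype. The part of fat in the Ms4a signals was not tested. The 11 kidney tubule and podocyte markers had a median of -0.06 and 0 calls by limma (1 higher and 0 lower at an unadjusted p under 0.05), with Calb1 at 0.34 (adjusted p = 0.107) and Slc12a1 at -0.16 (adjusted p = 0.327).

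The genes whose pattern over the 6 arrays was nearest to each of a pair of members were ranked by the root mean square difference of their log2 signals, each centred on its own wild-type mean. Ms4a7 was nearest to Serping1 (0.0408), the C1 inhibitor, then the chemokine gene Ccl9 (0.0944), Adgre1 (0.0996), which encodes the macrophage marker F4/80, Osmr (0.104), the oncostatin M receptor, and Fblim1 (0.109). Ms4a6b followed at order 6 with 0.110. Ms4a6d was nearest to Sprr1a (0.390), Rnase4 (0.418), Stc1 (0.457), Col12a1 (0.468) and Clca3a2 (0.497), and its nearest member was Ms4a6b at 0.789, order 30. The distances of Ms4a6d were longer than those of Ms4a7, and its knockout values were also more spread. The signals were not scaled, so a distance depends strongly on the size of the difference between genotypes, on which the members were selected. The 5 genes nearest to Ms4a7 had log2 differences of 1.315 to 1.48, against its own 1.39. The order is a description and was not tested.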

How the data were processed

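Signals of 3 wild-type and 3 Vhl knockout kidney arrays were analysed, grouped by the genotype in the sample labels. Per the submitters' processing notes, RMA gave the log2 signals that the authors deposited, 1 per Entrez gene. RMA brings arrays to one distribution and gives no detection call, and the number of arrays limits the precision. A deposited table of the authors' own comparison (log2 values, a moderated statistic, p and q) was not used, and 0 value columns were left over. A RefSeq table (GRCm38.p6) gave current symbols by Entrez ID and matched all 23185 rows with a symbol, and 2021 rows had none. Genotypes were compared row by row in limma 3.58.1 (lmFit, eBayes, R 4.3.3), with Benjamini-Hochberg adjustment over 25206 rows and a threshold of 0.05. For arrays, no test is named in the paper. The fit was also run on simulated independent noise with planted differences. That noise holds no signal shared between the rows of an array, so the run is no check on the results here.

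Members, gene lists and alternatives were chosen with earlier results of these data known. Every member and partner is named, of other lists up to 3 called genes or the 2 with the largest differences, and the 5 genes nearest to Ms4a6d and to Ms4a7. Motif AGGAAGT and the forms without the final A were added after matches had been seen. List genes with no row here were not analysed. Array medians differed by at most 0.0356, correlations between arrays were 0.987 to 0.9942, and 0 pairs were identical.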

Additional observations from a re-analysis of the deposited data

How the results depend on the processing

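Of 663 values of single genes under alternative settings, 516 kept their side of the threshold, 144 lost the call, 3 gained it and 0 of the called genes reversed. The count of called Ms4a genes was 4 each time 1 array was left out (Ms4a6b, Ms4a6c, Ms4a6d and Ms4a7). Under quantile normalization, trend and robust eBayes, array weights, the adipocyte covariate and a threshold of 0.01 it was 3 to 5. Without knockout replicates 1 and 3, which leaves 1 knockout array assumed to vary like the wild-type arrays, it was 0, with 8 rows called higher and 0 lower in all and 0 macrophage markers. Leaving out 1 array gave 223 to 361 rows higher (565 with all arrays), 21 to 52 lower (132) and 10 to 15 macrophage markers (14). With the adipocyte covariate, 91 rows were higher, 3 lower and 6 macrophage markers called, and at 0.01, 176, 7 and 9. Lower rows numbered 262 with the filter and 268 with trend and robust eBayes. With replicate number as a block, 246 rows were higher, 24 lower and 5 Ms4a genes called, with Ms4a4a added. Deviations from the group means correlated at 0.036, 0.0731 and -0.0996 between same-numbered arrays, and at -0.102 to 0.0663 between the others. No pairing by number was seen, but 3 arrays per group cannot exclude one. The 3 gains were all of Ms4a4a, under quantile normalization, trend and robust eBayes and the block. Over the alternatives the log2 difference of Ms4a6d ran from 1.88 to 2.76. With 3 arrays per group and no background measure, the intervals of Ms4a4c, Ms4a4d, Ms4a4b and Ms4a8a included 0. Under the block the calls of Clec7a (adjusted p = 0.0693) and Tyrobp (adjusted p = 0.0634) were lost. Those of F13a1, Plac8, Itgax, Siglech, Oas2, Oasl2 and Xaf1 were lost there as well, and 11 macrophage markers were called against 14 without the block.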
